A study of Mus musculus with 2 samples.

Results

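Transcripts of 10 genes of bone morphogenetic protein (BMP) signalling were followed across the cell classes of the early postnatal mouse pituitary: Id1, Id2, Id3 and Id4, the ligand genes Bmp2, Bmp4 and Bmp7, the inhibitory SMAD genes Smad6 and Smad7, and Nog, which encodes the secreted BMP antagonist noggin. They were chosen by symbol among 31055 features, with earlier results of these data known, and all 10 were found in each library. The study sorted GFP-positive cells from pituitaries of Sox9iresGFP/+ mice on postnatal day 3 and counted transcripts in single cells, to follow stem cells and the endocrine cells that form from them. A male library and a female library were available, each made from 3 pooled pituitaries of that genotype and age, with no other allele or treatment. The reporter marks cells that transcribe Sox9, and its GFP is stable enough that cells which have lately stopped making SOX9 are sorted as well. SOX9 is not confined to the epithelium, so connective tissue cells and pituicytes, the glia of the posterior lobe, can carry the reporter too.

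BMP ligands are secreted proteins that bring together type 1 and type 2 receptors on the receiving cell, and the receptors phosphorylate SMAD1, SMAD5 and SMAD9, which enter the nucleus with SMAD4. The ID genes are among their best known direct targets: ID proteins lack a DNA-binding region, pair with E proteins such as TCF4, and so keep E proteins away from tissue-specific partners. Smad6 and Smad7 are also induced by the pathway and dampen it inside the cell, while noggin binds ligands outside it, and BMP signals are known from the embryo to pattern the pituitary primordium.

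The 4 ID genes lie apart in the genome (mm10, GENCODE vM21): Id1 (ENSMUSG00000042745) at chr2:152736251-152737410, Id2 (ENSMUSG00000020644) at chr12:25093799-25097140, Id3 (ENSMUSG00000007872) at chr4:136143497-136145755 and Id4 (ENSMUSG00000021379) at chr13:48261228-48266026. The ligand genes are Bmp2 (ENSMUSG00000027358, chr2:133552159-133562885), Bmp4 (ENSMUSG00000021835, chr14:46383520-46390669) and Bmp7 (ENSMUSG00000008999, chr2:172868012-172940321). Smad6 (ENSMUSG00000036867) is at chr9:63953076-64022059 and Nog (ENSMUSG00000048616) is at chr11:89300638-89302332, and the identifier of Smad7 is ENSMUSG00000025880.

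RefSeq promoters on GRCm38.p6 were matched for 5 of the 10 genes (Id2, Id3, Id4, Bmp4 and Smad6). Those of Id4 and Bmp4 are shown as the 250 bases before the RefSeq start, because the results on pituicyte-like and differentiating cells turn on these genes and their windows overlap no annotated exon. The Bmp4 window adjoins its annotated gene. The Id4 window ends at 48261115, while the annotated gene starts at 48261228, so motif distances there count from the RefSeq start. Capitals mark GGCGCC, a palindrome of the GC-rich kind that SMAD proteins bind in ID gene enhancers, searched as these letters and equal on both strands.
Id4, chr13:48260866-48261115, plus strand: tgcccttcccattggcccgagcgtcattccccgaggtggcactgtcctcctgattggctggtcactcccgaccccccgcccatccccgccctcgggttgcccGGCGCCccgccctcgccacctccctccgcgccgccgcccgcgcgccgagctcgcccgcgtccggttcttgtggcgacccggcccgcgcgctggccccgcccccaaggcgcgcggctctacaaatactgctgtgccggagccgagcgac
Bmp4, chr14:46390670-46390919, minus strand: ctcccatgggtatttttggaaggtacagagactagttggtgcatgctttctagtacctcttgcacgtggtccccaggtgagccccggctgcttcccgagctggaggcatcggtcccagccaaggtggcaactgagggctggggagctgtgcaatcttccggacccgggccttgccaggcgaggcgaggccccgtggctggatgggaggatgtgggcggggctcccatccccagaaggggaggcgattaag
The Id4 window held the motif 148 to 143 bases before the RefSeq start, and the Id2 window held it 231 to 226 bases before its RefSeq start. Those of Id3, Bmp4 and Smad6 did not contain these letters, and 9.59% of 32851 mouse promoter windows of this length did. The Id2 window (chr12:25096093-25096342) lies inside the annotated gene and overlaps an annotated exon, so its motif is not upstream of that gene. The Id3 window (chr4:136143572-136143821) also lies inside its annotated gene. A match is a description of the letters and was not tied to binding.

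The male library held 10569 barcodes, of which 10410 passed the filters, and the female library 5796, of which 5711 passed, with medians of 8902.5 and 9789 unique molecular identifiers (UMIs) per cell. Raw marker UMIs defined the classes among cells with at least 2500 UMIs. Under that minimum lay 28.4% of male and 2.03% of female cells. Between the libraries, 18 barcode sequences were shared. Stem cells (Sox2 and Sox9, no Lef1; 1794 male and 1864 female) carried Aldh1a2 at 746 and 535 CPM (UMIs of the gene per 1000000 UMIs of the class). S100b, often used for adult pituitary stem cells, was at 0.524 and 0.278 CPM there and at 14.2 and 16.8 CPM in mesenchymal cells. Differentiating cells (at least 2 Lef1 UMIs, no hormone gate; 882 and 606) carried Gadd45g at 869 and 648 CPM and Smoc2 at 325 and 282 CPM. Endocrine cells (1258 and 387) carried Chga at 860 and 789 CPM, and mesenchymal cells (545 and 279) carried Tcf21, which was not used to choose them, at 711 and 600 CPM. Pituicyte-like cells numbered 11 in the male library and 0 in the female library, where 1 cell met the gate but also the stem gate. Their Lhx2, outside the gate, was at 292 CPM against at most 0.703 CPM in every other class.

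Median UMIs per cell were 11795 and 9910.5 in stem, 14226.5 and 12874.5 in differentiating, 14793.5 and 13191 in endocrine and 7797 and 7543 in mesenchymal cells. With 1 library per sex there is no replicate and no test; limits are exact 95% limits of counting error only, and sex cannot be told apart from animals, sort and library. Carry-over of mesenchymal RNA was gauged from Dcn, a collagen-binding matrix gene, which was at 4823 and 6008 CPM in mesenchymal cells and at 1.64 and 0.786 CPM in stem cells. If mesenchymal Id3 had travelled in the same ratio, it would have supplied 0.173 and 0.0815 CPM in stem cells. Col1a2, another gate marker, was at 8.52 and 15.0 CPM in stem against 1967 and 2294 CPM in mesenchymal cells. Its ratio would give a larger supply than that of Dcn, and whether stem cells make Col1a2 themselves was not tested. Cells in both the stem and mesenchymal gates (31 and 11) had been left out, which also lowers these marker levels in stem cells. Hormone transcripts were also found outside endocrine cells. Gh, the growth hormone gene, was at 7210 and 22825.4 CPM in endocrine, 407 and 179 CPM in stem and 782 and 66.2 CPM in differentiating cells. Pomc was at 56671 and 41585.9 CPM in endocrine cells, 169 and 62.4 CPM in stem cells and 292.5 and 34.5 CPM in mesenchymal cells. The part of carried-over endocrine RNA in the members' levels was not tested. Immune markers summed to between 0 and 2.68 CPM in the 5 classes taken whole, with Cd68 the most abundant wherever any was found and Ptprc at 0 UMIs in each. Endothelial markers summed to at most 2.5 CPM outside 2 classes. In mesenchymal cells they reached 203 and 226 CPM, of which Emcn made 186 and 206 CPM while Pecam1 was at 0.206 and 0.432 CPM. In the 11 pituicyte-like cells they were 6 Kdr UMIs, with Pecam1, Cdh5, Emcn and Cldn5 at 0. Mesenchymal markers summed to 17.4 and 20.1 CPM in stem cells, 9.34 and 7.59 CPM in differentiating cells, 24.9 and 39.1 CPM in endocrine cells, 74.7 CPM in pituicyte-like cells (Dcn 61.1 CPM), and 13444.5 and 15999.1 CPM in mesenchymal cells. Pituicyte markers made 1201 CPM in the pituicyte-like cells, with Vax1 at 0, and at most 9.47 CPM in the other 4 classes taken whole. Within endocrine cells the POMC lineage had 15.1 and 23.8 CPM, of which Vax1 made 12.45 and 17.4 CPM.

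**Figure D1:**
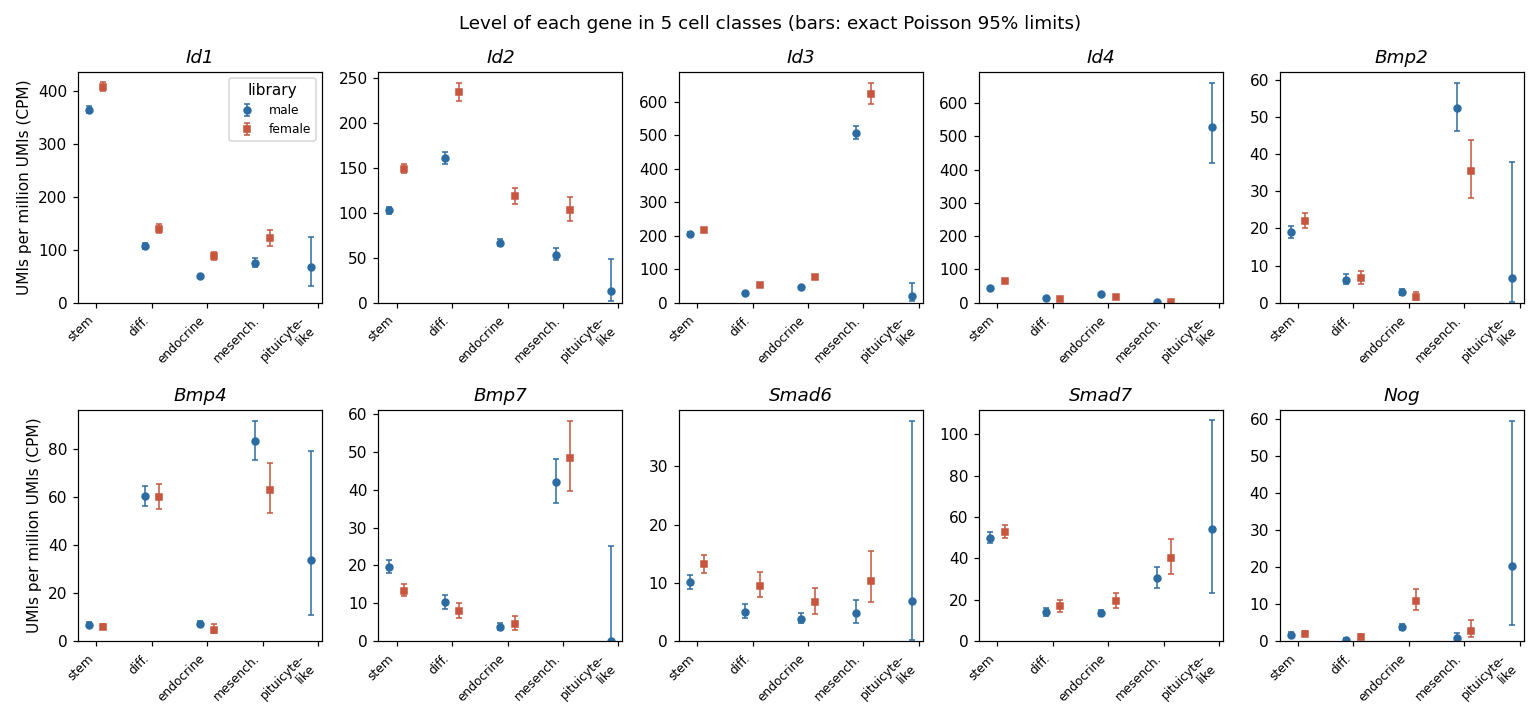
Level of each of the 10 genes (vertical axis, CPM, linear from 0, scaled separately for each gene) in stem, differentiating, endocrine, mesenchymal and pituicyte-like cells (horizontal axis); circles are the male and squares the female library, and bars are exact Poisson 95% limits. Id1 stands highest in stem cells, Id2 in differentiating cells, Id3 in mesenchymal cells and Id4 in the 11 male pituicyte-like cells.

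In the male library each ID gene had its highest level in a different class, whereas in the female library, with no pituicyte-like cells, Id1 and Id4 were both highest in stem cells. Id1 and Id3 were high in stem cells and several-fold lower in differentiating cells, while Id2 was higher in differentiating than in stem cells. Bmp4 ran the other way from Id1 and Id3, with about 60 CPM in differentiating cells of each library against under 7 CPM in stem cells. Of the 8 members tested (mean level of at least 10 CPM), 5 were at least 2-fold higher in stem than in differentiating cells in both libraries (Id1, Id3, Id4, Bmp2 and Smad7), against 10.5% of all 8514 genes tested. Bmp4 alone was at least 2-fold higher in differentiating cells, against 4.04% of all genes. Bmp2 reached the minimum mean only through stem cells and Bmp4 only through differentiating cells. Nog and Smad6 were under the minimum and were not tested. The median log2 ratio of stem to differentiating cells was 1.54 and 1.60 over the members tested, and -0.02 and -0.01 over all genes. The members and the other pathway genes below were chosen with earlier results of these data known. Their counts and medians beside those of all genes are therefore descriptions and not a test.

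Id1, the ID gene most often used as a readout of BMP signalling, was at 366 CPM in male and 409 CPM in female stem cells. Its level was 107 and 140 CPM in differentiating, 50.3 and 88.6 CPM in endocrine and 75.6 and 122 CPM in mesenchymal cells. Of the 4 large classes, stem cells were the highest in each library and endocrine cells the lowest. Male pituicyte-like cells had Id1 at 67.9 CPM (32.5 to 124.8), with limits that hold the endocrine level. The ratio of stem to differentiating cells was 3.41 (3.23 to 3.61) in the male and 2.92 (2.74 to 3.10) in the female library. Shares of cells were compared at equal depth by drawing 5000 UMIs from every cell, and 53 male and 28 female stem cells were too shallow for this. At that depth, 58.8% and 58.1% of stem cells held an Id1 UMI (74.1% and 70.5% unthinned). The thinned share was 20.7% and 25.2% in differentiating cells (34.8% and 37.3% unthinned), so Id1 was found in a smaller share of cells as well as at a lower mean.

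Id3 was at 204 and 216 CPM in stem cells and at 28.2 and 52.7 CPM in differentiating cells. It was the ID gene with the largest male ratio between them, 7.24 (6.53 to 8.05), and the female ratio was 4.11 (3.73 to 4.54). With stricter gates the male ratio was 13.9, and without marked doublets the female ratio was 5.77. Thinned shares of cells with a UMI were 35.2% and 33.0% in stem cells and 7.36% and 8.62% in differentiating cells (unthinned 50.6% and 43.7%, then 12.7% and 14.4%). Id3 then rose to its highest level outside the epithelium, with 508 and 623 CPM in mesenchymal cells. That was 2.48-fold (2.37 to 2.60) and 2.88-fold (2.71 to 3.06) the stem level. In endocrine cells Id3 stood at 47.3 and 76.3 CPM.

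Id3 was found more often in cells that also held Id1. Among thinned stem cells with an Id1 UMI, 43.6% (male) and 42.2% (female) also held Id3, against 23.3% and 20.1% of those without Id1. The same held among differentiating cells, where 22.8% and 21.7% of cells with Id1 held Id3 against 3.33% and 4.21% of the rest. The rank correlation of the pair over stem cells was 0.29 and 0.35, that of Id1 with Id2 0.01 and 0.11, and that of Id1 with Smad7 -0.03 and -0.02. These correlations are over 1741 and 1836 cells that share a library and a depth, and the counts are sparse.

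The dissociation response moves with the classes as well. Its 7 immediate-early genes (Fos, Fosb, Jun, Junb, Egr1, Ier2 and Atf3), which cells switch on during tissue digestion, summed to 11967.4 and 12145.5 CPM in stem cells. The sum was 6845 and 8390 CPM in differentiating, 4971 and 6671 CPM in endocrine, 7461 and 8231 CPM in mesenchymal and 1439 CPM in pituicyte-like cells. Stem cells exceeded differentiating cells 1.75-fold and 1.45-fold in this sum, with 7 and 6 of the 7 genes higher, and Fos was the most abundant in every class. Id1 and Id3 are themselves quickly induced genes, and the part of the dissociation response in their class differences was not tested. The rank correlation of Id1 with Fos over thinned cells, which share a library, was 0.01 and 0.04 among stem cells and 0.12 and 0.07 among differentiating cells.

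Id2 kept a different order. Its level was 103 and 149 CPM in stem cells, 161 and 234 CPM in differentiating cells, 66.9 and 119 CPM in endocrine cells and 53.6 and 104 CPM in mesenchymal cells. Differentiating cells exceeded stem cells 1.57-fold in each library (limits 1.48 to 1.66 and 1.49 to 1.66), which is under the 2-fold limit. Thinned shares were 46.6% and 59.2% of differentiating against 34.6% and 39.0% of stem cells (73.4% and 81.7% against 57.8% and 56.2% unthinned). Endocrine and mesenchymal cells were the lowest of the 4 large classes in Id2.

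Id4 was far lower in mesenchymal than in stem cells, and its highest level was outside the 4 large classes. In stem cells it was at 42.9 CPM (male) and 64.2 CPM (female), in differentiating cells at 15.7 and 11.0 CPM, in endocrine cells at 25.7 and 16.7 CPM, and in mesenchymal cells at 3.30 and 3.45 CPM. The stem level was 2.74-fold (2.37 to 3.18) and 5.82-fold (4.72 to 7.26) that of differentiating cells and 18.6-fold (9.42 to 43.2) that of mesenchymal cells in the female library, where the male limits were 7.97 to 22.8. With stricter gates the female ratio to differentiating cells was 10.1, and without marked doublets the ratios to mesenchymal cells were 21.6 and 34.6. Thinned shares of cells with an Id4 UMI were 1.49% and 1.18% of mesenchymal against 18.5% and 23.4% of stem cells (unthinned 2.57% and 2.51%, against 38.2% and 38.5%).

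In the 11 male pituicyte-like cells Id4 reached 529 CPM (418 to 661), 12.3-fold (9.69 to 15.5) the male stem level. Every one of the 11 cells held it, with 1 to 18 UMIs and a median of 7. Rax, Nkx2-1 and Col25a1, which gated them, were each found in 10 of the 11 cells, and Gja1, which was not in the gate and encodes an astroglial gap junction protein, was found in 10. The other ID genes were sparse there: Id1 had 10 UMIs, 9 of them in a single cell, Id3 had 3 UMIs and Id2 had 2. Bmp4 had 5 UMIs in 5 cells, Smad7 8 UMIs in 6 cells, Nog 3 UMIs in 3 cells, Bmp2 and Smad6 1 UMI each, and Bmp7 none, which allows up to 20.4 CPM. No female counterpart was available, so the pituicyte-like levels rest on a single library.

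**Figure D2:**
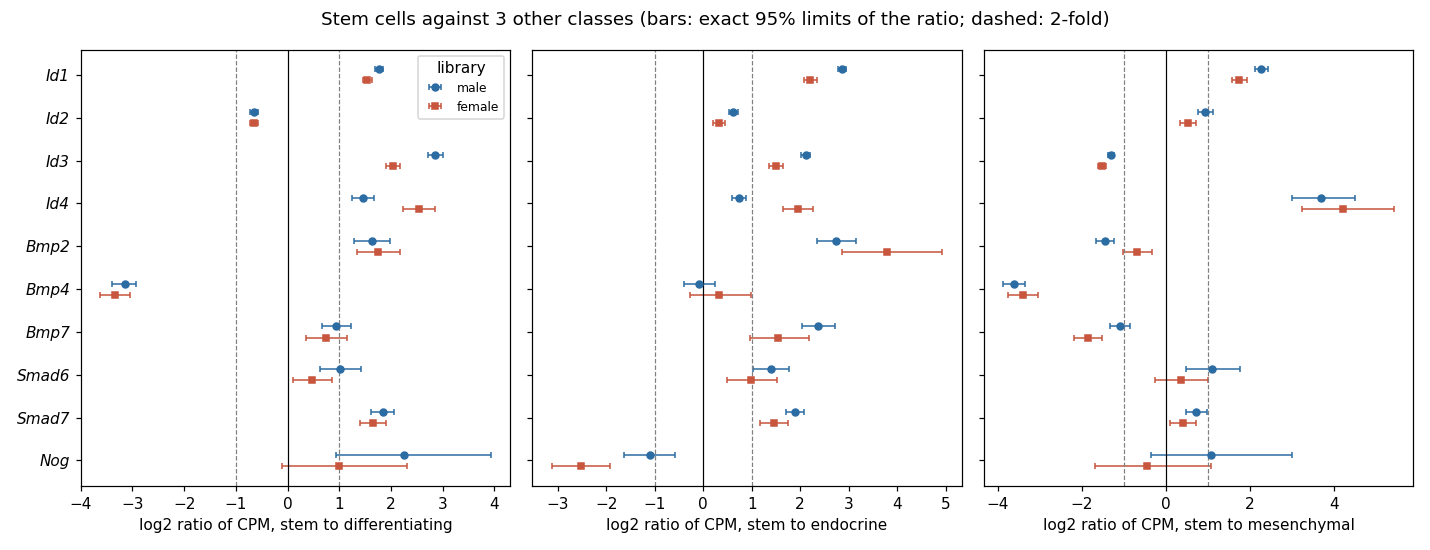
Log2 ratio of CPM in stem cells to differentiating, endocrine or mesenchymal cells (horizontal axes) for each gene (vertical axis); circles are the male and squares the female library, bars are exact 95% limits of the ratio, and dashed lines mark 2-fold. Bmp4 lies left of the 2-fold line against differentiating and mesenchymal cells but near 0 against endocrine cells, while Id1 lies right of it in all 3 panels.

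Of Bmp2, Bmp4 and Bmp7, Bmp4 was the ligand gene with the higher level in differentiating than in stem cells. Its level was 6.78 and 5.97 CPM in stem cells, 60.3 and 60.1 CPM in differentiating cells, 7.17 and 4.74 CPM in endocrine cells and 83.3 and 63.0 CPM in mesenchymal cells. Differentiating and mesenchymal cells were thus both high, and stem and endocrine cells both low, in each library. Differentiating exceeded stem cells 8.89-fold (7.60 to 10.5) and 10.1-fold (8.29 to 12.3), and stricter gates gave a female ratio of stem to differentiating cells of 0.0649. A Bmp4 UMI was found in 19.4% and 20.7% of thinned differentiating cells (39.7% and 37.8% unthinned), against 3.62% and 2.29% of stem cells (8.70% and 5.74% unthinned) and 2.34% and 3.13% of endocrine cells (5.80% and 4.91% unthinned). Between stem and endocrine cells the ratio was 0.945 (0.761 to 1.18) and 1.26 (0.827 to 1.98), so no difference was detectable at this depth in either library.

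Bmp2 and Bmp7 were highest in mesenchymal cells and, within the epithelium, in stem cells. Bmp2 was at 52.4 and 35.4 CPM in mesenchymal, 19.1 and 22.0 CPM in stem, 6.18 and 6.52 CPM in differentiating and 2.86 and 1.58 CPM in endocrine cells. This order was equal in both libraries. Bmp7 was at 42.0 and 48.3 CPM in mesenchymal, 19.6 and 13.3 CPM in stem, 10.2 and 7.95 CPM in differentiating and 3.80 and 4.56 CPM in endocrine cells. The ratio of stem to differentiating cells was 3.09 (2.45 to 3.94) and 3.37 (2.54 to 4.54) for Bmp2, and 1.92 (1.59 to 2.33) and 1.68 (1.28 to 2.22) for Bmp7. Bmp2 therefore passed 2-fold in both libraries and Bmp7 in neither.

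Between stem and differentiating cells, the inhibitors inside the cell had the order of Id1. Smad7, whose protein blocks type 1 receptors, was at 49.9 and 52.9 CPM in stem, 13.97 and 16.8 CPM in differentiating, 13.5 and 19.3 CPM in endocrine and 30.3 and 40.1 CPM in mesenchymal cells. Stem exceeded differentiating cells 3.57-fold (3.07 to 4.18) and 3.14-fold (2.64 to 3.77), and 5.46-fold in the female library with stricter gates. Smad6, whose protein competes with SMAD4 for SMAD1, differed less between classes. It was at 10.1 and 13.2 CPM in stem, 4.999 and 9.49 CPM in differentiating, 3.84 and 6.67 CPM in endocrine and 4.74 and 10.4 CPM in mesenchymal cells. Its ratio of stem to differentiating cells was 2.02 (1.55 to 2.67) in the male and 1.39 (1.08 to 1.80) in the female library.

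Nog was sparse in every large class. It had 50 and 41 UMIs in all stem cells (1.75 and 1.90 CPM), 5 and 8 in differentiating cells, 4 and 6 in mesenchymal cells, and 80 and 62 in endocrine cells (3.75 and 10.9 CPM). The endocrine level was 2.15-fold (1.49 to 3.12) and 5.74-fold (3.81 to 8.73) the stem level, and 0.977% and 0.926% of thinned stem cells against 2.25% and 4.43% of endocrine cells held a UMI (2.51% and 1.99% against 4.61% and 8.27% unthinned). Nog was thus the only member with its highest level of the 4 large classes in endocrine cells, in both libraries.

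Against endocrine cells, 5 of 7 members tested were at least 2-fold higher in stem cells in both libraries (Id1, Id3, Bmp2, Bmp7 and Smad7), against 10.9% of all 8757 genes. Bmp2 and Bmp7 reached the minimum mean only through their level in stem cells, so their count here is partly set by that minimum. No member tested was 2-fold higher in endocrine cells, against 7.24% of all genes. The median log2 ratio was 2.11 and 1.55 over the members and 0.01 and 0.01 over all genes. Id1 fell furthest in the male library among the ID genes, with a stem to endocrine ratio of 7.27 (6.83 to 7.75), and 4.62 (4.22 to 5.06) in the female library.

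Against mesenchymal cells the members split. Id1 and Id4 were at least 2-fold higher in stem cells (2 of 8, against 10.5% of 8803 genes), and Id3, Bmp4 and Bmp7 were at least 2-fold higher in mesenchymal cells (3 of 8, against 10.3%). Id4 reached the minimum mean only through stem cells and Bmp4 only through mesenchymal cells. Bmp2 was 2.75-fold (2.36 to 3.19) higher in mesenchymal cells of the male but 1.61-fold (1.26 to 2.04) in the female library. The median log2 ratio of stem to mesenchymal cells was -0.19 and -0.14 over the members and 0.00 and 0.05 over all genes.

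Between differentiating and endocrine cells, Bmp4 alone of 6 members tested was at least 2-fold higher in differentiating cells in both libraries, at 8.41-fold (7.07 to 10.1) and 12.7-fold (8.62 to 19.5), against 3.16% of 8386 genes. Bmp4 reached the minimum mean only through differentiating cells. None was 2-fold higher in endocrine cells, against 5.80% of all genes. The median log2 ratio was 0.57 and 0.23 over the members and 0.02 and 0.01 over all genes. Id2 came closest, at 2.41-fold (2.26 to 2.58) and 1.97-fold (1.81 to 2.16) higher in differentiating cells.

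**Figure D3:**
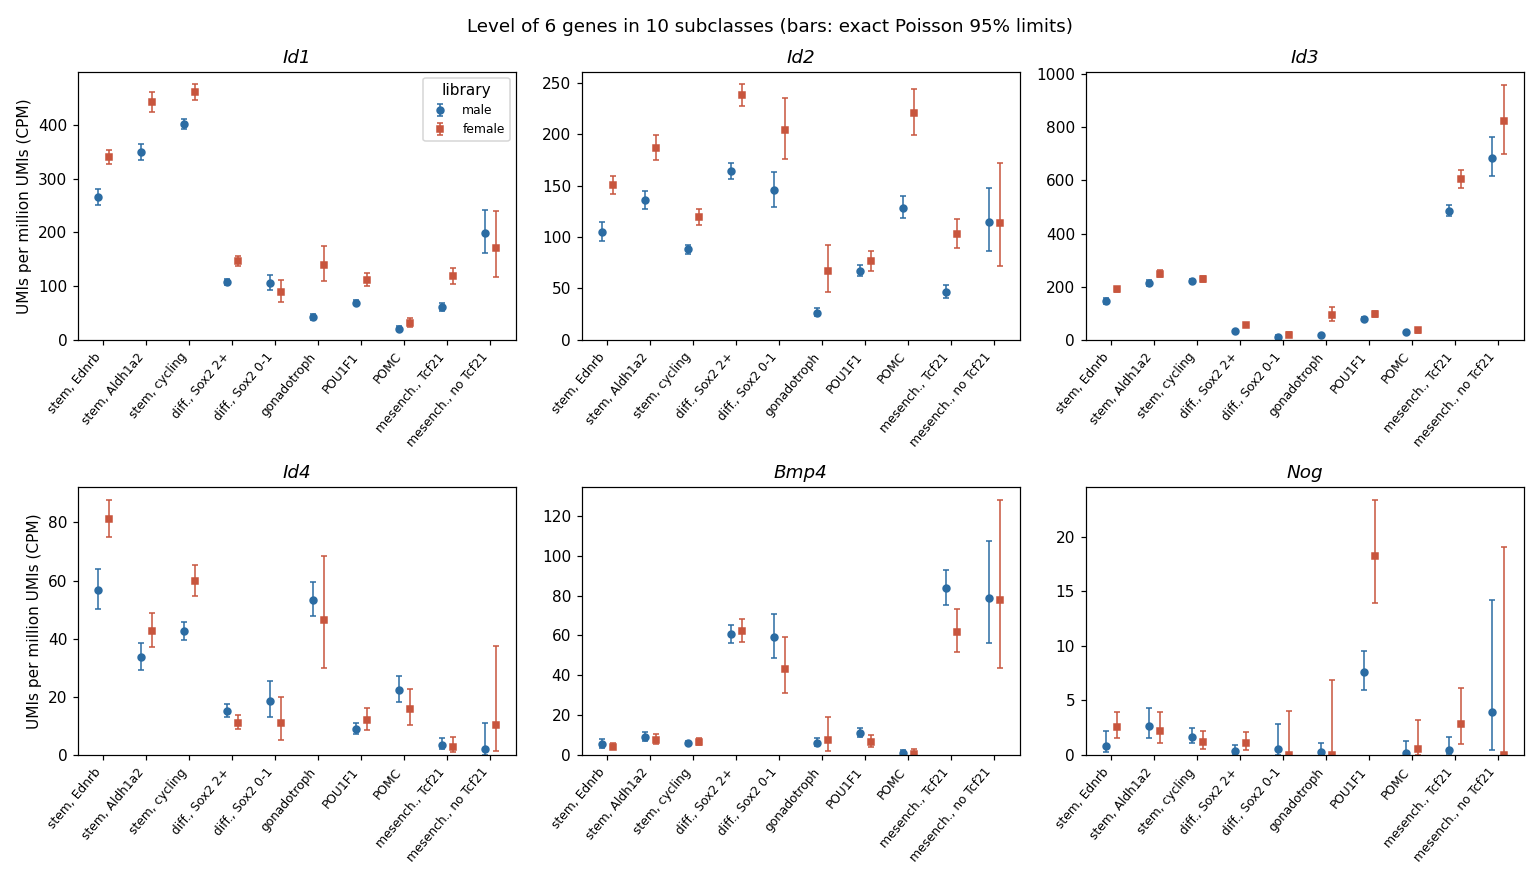
Level (vertical axis, CPM, linear from 0) of Id1, Id2, Id3, Id4, Bmp4 and Nog in 10 subclasses (horizontal axis: stem cells that are cycling, hold Ednrb or hold Aldh1a2 without Ednrb, differentiating cells by Sox2, the 3 endocrine lineages, and mesenchymal cells by Tcf21); circles are the male and squares the female library, bars exact Poisson 95% limits. Id4 is high in gonadotrophs and low in the POU1F1 lineage, Id2 is highest among endocrine cells in the POMC lineage, and Nog stands out in the POU1F1 lineage.

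Within the endocrine class the members went separate ways by lineage. Gonadotrophs, which make LH and FSH and were gated by Cga with other gonadotroph genes (413 and 36 cells), carried Id4 at 53.4 and 46.3 CPM. The POU1F1 lineage, from which growth hormone, prolactin and TSH cells come (592 and 243 cells), carried Id4 at 8.98 and 12.0 CPM, and the POMC lineage of corticotrophs and melanotrophs (210 and 104 cells) at 22.2 and 15.7 CPM. The ratio of gonadotrophs to the POU1F1 lineage was 5.94 (4.67 to 7.63) and 3.88 (2.25 to 6.55). An Id4 UMI was in 186 of 413 male and 15 of 36 female gonadotrophs, and no single cell held more than 9 and 4 of their 341 and 25 UMIs.

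Id2 was highest in the POMC lineage, at 129 and 221 CPM, against 67.2 and 76.2 CPM in the POU1F1 lineage and 26.4 and 66.7 CPM in gonadotrophs. Id1 and Id3 had the opposite order between the POMC and POU1F1 lineages. Id1 was at 20.5 and 31.3 CPM in the POMC lineage against 69.2 and 112 CPM in the POU1F1 lineage, a ratio of 0.295 (0.235 to 0.368) and 0.280 (0.207 to 0.374). Id3 was at 28.0 and 34.8 CPM against 78.3 and 97.1 CPM. Mesenchymal markers had the same order, with a sum of 11.6 and 5.80 CPM in the POMC lineage against 44.0 and 62.7 CPM in the POU1F1 lineage. Of the latter, Col1a2 made 30.6 and 46.0 CPM. The dissociation genes had this order too, with 3561 and 5149 CPM in the POMC lineage against 6470 and 7891 CPM. The part of either gene set in the lineage differences of Id1 and Id3 was not tested. The POMC lineage also had the lowest Bmp4 of all subclasses, with 4 and 1 UMIs (0.889 and 0.580 CPM). In the POU1F1 lineage Bmp4 was at 11.1 and 6.57 CPM.

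Gonadotrophs differed between the libraries in Id1 and Id3. Id1 was at 41.6 CPM in male and 139 CPM in female gonadotrophs, and Id3 at 17.1 and 92.6 CPM. The female values came from 36 cells, of which a single cell held 27 of the 50 Id3 UMIs and a single cell 21 of the 75 Id1 UMIs. Without that cell female Id3 was 43.5 CPM, and without the other female Id1 was 102 CPM.

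Among endocrine cells Nog was mostly found in the POU1F1 lineage, with 71 of 80 male and 61 of 62 female UMIs (7.59 and 18.2 CPM). Gonadotrophs held 2 and 0 Nog UMIs and the POMC lineage 1 and 1, and 0 UMIs in the 36 female gonadotrophs allows up to 5.56 CPM. Splitting the lineage by hormone, Nog had 16.3 CPM (8.70 to 27.9) and 41.6 CPM (25.4 to 64.2) in the 34 and 27 cells with at least 100 Gh UMIs. It was at 16.2 CPM in the 50 male cells with at least 20 Prl UMIs, while the 508 and 211 cells with neither hormone had 5.81 CPM (limits 4.24 to 7.77) and 14.3 CPM (limits 10.2 to 19.5). The Gh-rich cells, with 13 and 20 Nog UMIs, thus had a higher level than cells with neither hormone in each library. The male cells with at least 20 Prl UMIs were also higher, so this was not particular to Gh-rich cells. The split was added after the levels had been seen, and its limits cover counting error only. In the female POU1F1 lineage a single cell held 9 of the 61 Nog UMIs. The Gh-rich cells were also deeper, with medians of 22666 and 16585 UMIs against 13212 and 12116, and the part of depth was not tested. Id3 went the other way in this split, with 42.7 and 4.16 CPM in Gh-rich cells (34 and 2 UMIs) against 85.3 and 116 CPM in cells with neither hormone.

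The stem class was not uniform either. Cells holding Ednrb, the endothelin receptor gene (401 and 782, not cycling), carried less Id1 (265 and 340 CPM) than cells holding Aldh1a2 without Ednrb (577 and 513), at 350 and 442 CPM. The ratio was 0.759 (0.707 to 0.813) and 0.770 (0.727 to 0.815), and for Id3 it was 0.674 (0.614 to 0.740) and 0.766 (0.710 to 0.827). Id4 differed in the other direction, with 56.8 and 81.2 CPM in Ednrb cells against 33.6 and 42.8 CPM, a ratio of 1.69 (1.41 to 2.03) and 1.90 (1.62 to 2.23). The dissociation genes summed to 14791.9 and 13577.1 CPM in the Ednrb cells and 12306 and 12091.5 CPM in the Aldh1a2 cells, and its part in these differences was not tested.

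Ligands and inhibitors differed along the same split. Bmp7 was at 12.4 and 7.64 CPM in Ednrb cells and 21.5 and 18.6 CPM in Aldh1a2 cells. Smad7 was at 61.7 and 60.8 CPM against 45.4 and 45.01 CPM, a ratio of 1.36 (1.15 to 1.61) and 1.35 (1.15 to 1.59). Smad7 and Id1 therefore moved apart within the stem class although both were higher in stem than in differentiating cells. Cycling stem cells (772 and 510) carried Id1 at 401 and 461 CPM and Id3 at 220 and 229 CPM, and had the lowest Id2 of the stem subclasses, at 88.0 and 119 CPM.

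**Figure D4:**
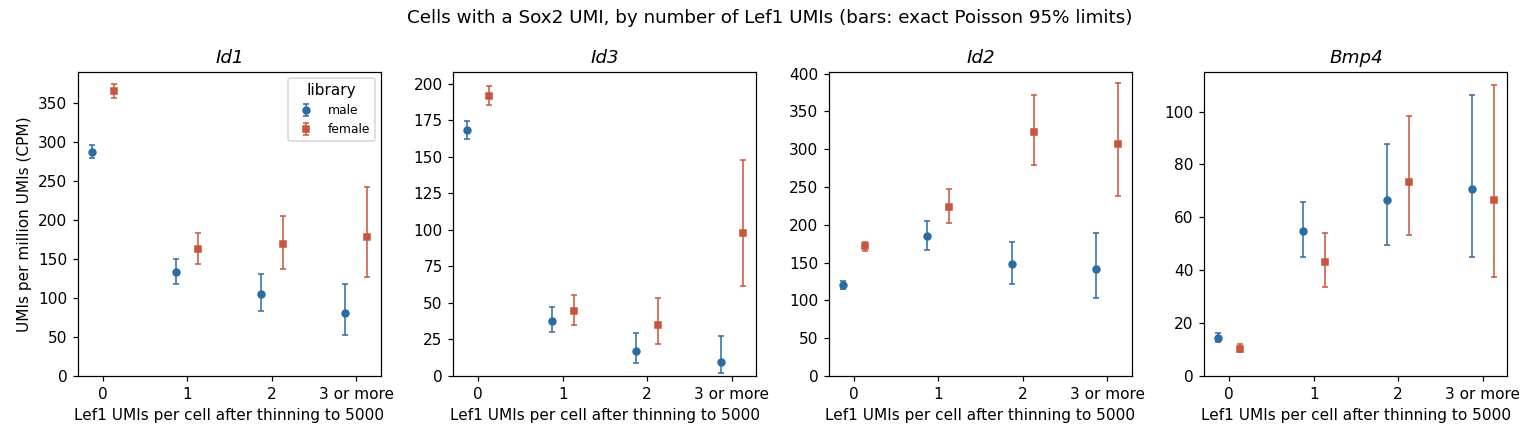
Level (vertical axis, CPM, linear from 0) of Id1, Id3, Id2 and Bmp4 in cells with a Sox2 UMI, grouped by Lef1 UMIs after thinning each cell to 5000 UMIs (horizontal axis); circles are the male and squares the female library, bars exact Poisson 95% limits. Id1 and Id3 drop and Bmp4 climbs between 0 Lef1 UMIs and 1, and the female groups with 3 or more hold only 45 cells.

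Thinned epithelial cells with a Sox2 UMI were also grouped by Lef1, a WNT-pathway transcription factor gene. Lef1 gates the stem and differentiating classes too, so this is not a separate reading of their difference. The group with 0 held 3364 and 3676 cells against 1741 and 1836 thinned stem cells, so it is wider than the stem class. The male groups with 2 and with 3 or more held 153 and 65 cells, against 870 thinned male differentiating cells. Thinning can thus move differentiating cells into the groups with 0 or 1. Id1 was at 287 and 364 CPM in cells with 0 Lef1 UMIs and at 133 and 162 CPM in cells with 1. It was at 105 and 168 CPM with 2, and at 80.0 and 178 CPM with 3 or more. Among these groups the largest step lay between 0 and 1 UMI, and the part of Lef1 UMIs lost by thinning in it was not tested. In the female group with 3 or more, a single cell held 16 of 40 Id1 UMIs, and the level was 109 CPM without it. Id3 was at 168 and 192 CPM with 0, 37.7 and 44.2 CPM with 1, 17.0 and 35.0 CPM with 2, and 9.23 and 97.8 CPM with 3 or more. The last male value came from 3 UMIs, and the last female value from 22 UMIs in 45 cells, with 63.6 CPM left without the cell that held 8 of them. Bmp4 was at 14.5 and 10.3 CPM with 0, 54.8 and 43.0 CPM with 1, 66.7 and 73.3 CPM with 2, and 70.8 and 66.7 CPM with 3 or more. Sox9 over these groups went from 95.1 and 104 CPM with 0 to 24.6 and 22.2 CPM with 3 or more.

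Smoc2, which encodes a secreted matrix protein, split the differentiating cells further. Cells with at least 2 Smoc2 UMIs (665 and 421) carried Bmp4 at 67.6 CPM (limits 62.8 to 72.7) and 68.1 CPM (limits 61.8 to 75.0). Cells with 0 Smoc2 UMIs (139 and 113) carried it at 25.5 CPM (18.9 to 33.7) and 25.0 CPM (17.4 to 34.7). Id1 had the reverse order, at 85.1 and 116 CPM against 238 and 221 CPM. Within the cells with 0 Smoc2 UMIs, those with at least 2 UMIs of Dll1 and Cdkn1a together (61 and 48) had Id1 at 261 CPM (limits 230 to 296) and 118 CPM (limits 93.3 to 146), so the female difference in Id1 was not seen in them. Id3 also had the reverse order, at 21.3 and 32.4 CPM against 69.7 and 128 CPM, and was at 57.3 and 55.9 CPM in the cells with Dll1 and Cdkn1a UMIs. Id2 differed less, at 154 and 231 CPM against 196 and 243 CPM. The cells with Smoc2 were deeper, with medians of 14877 and 13654 UMIs against 12441 and 10997.

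Differentiating cells with under 2 Sox2 UMIs (144 and 76) had less Id3 than those with at least 2, at 11.8 and 17.4 CPM against 31.0 and 57.0 CPM. Bmp4 was similar on both sides of this split in the male library (59.0 and 60.5 CPM) and lower with less Sox2 in the female library (43.4 against 62.2 CPM). Mesenchymal cells with Tcf21 carried Bmp2 at 57.3 and 36.7 CPM, and the 71 and 22 cells without it at 9.86 and 20.7 CPM from 5 and 4 UMIs. Without Tcf21, Bmp7 was higher, at 82.8 and 93.2 CPM against 37.3 and 44.3 CPM, and so was Id3, at 686 and 823 CPM against 487 and 605 CPM.

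Single cells contributed unequally. Of the thinned Id1 UMIs in stem cells, the 174 male and 184 female cells with the most held 42.9% and 46.6%, and for Id3 the same number of cells held 60.2% and 65.9%. Poisson limits do not cover this spread between cells.

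Between the libraries, no member of 8 tested was 1.5-fold higher in male stem cells (against 1.21% of 8535 genes), and none in female stem cells (against 1.29%). Id4 came closest, with a female to male ratio of 1.499 (1.39 to 1.62). Id2 had a ratio of 1.45 (1.38 to 1.52), and was also higher in the female library in differentiating (1.45), endocrine (1.78) and mesenchymal cells (1.93). Gonadotrophs, the endocrine lineage lowest in Id2, made up 413 of 1258 male but 36 of 387 female endocrine cells. Within the POU1F1 lineage the Id2 ratio was 1.13 (0.976 to 1.31), so no difference was detectable there at this depth. The Id2 ratio was 1.72 (1.504 to 1.96) within the POMC lineage and 2.52 (1.71 to 3.63) within gonadotrophs. The part of lineage make-up in the endocrine ratio was not tested. Bmp7 had a male to female ratio of 1.47 (1.28 to 1.71). The female to male ratio in stem cells was 1.12 for Id1, 1.06 for Id3 and 1.06 for Smad7. In differentiating cells it was 0.998 (0.891 to 1.12) for Bmp4 but 1.87 (1.62 to 2.14) for Id3. These values include marked doublets, without which the female ratio of stem to differentiating cells in Id3 moved from 4.11 to 5.77.

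**Figure D5:**
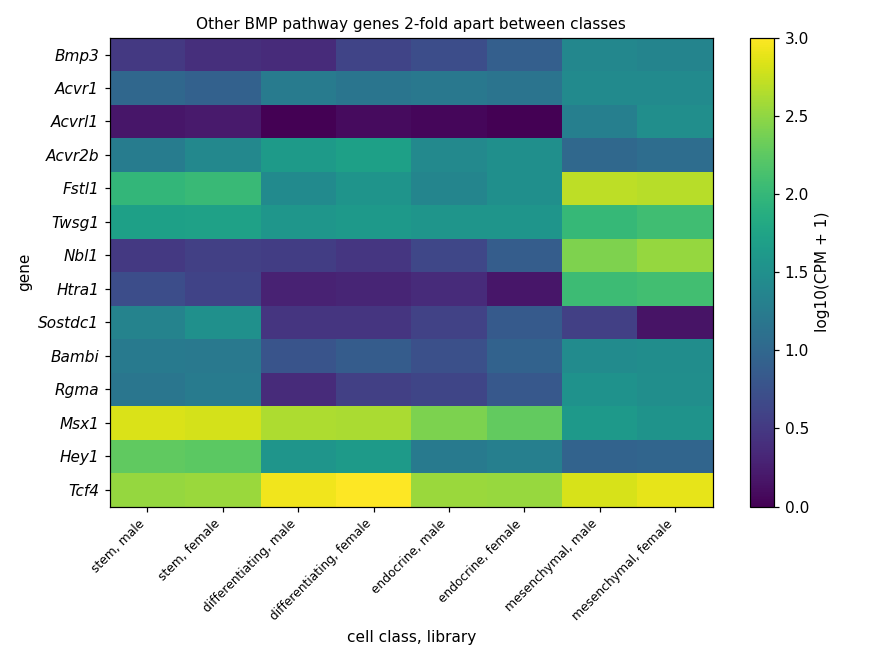
Level of 14 other BMP pathway genes (vertical axis) in 4 cell classes of both libraries (horizontal axis); colour is log10(CPM + 1). Nbl1, Htra1 and Fstl1 are brightest in mesenchymal cells, Hey1 and Msx1 in stem cells and Tcf4 in differentiating cells, in each library.

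Of 51 other genes of the pathway, all were found in the files, and 21 passed the minimum between stem and differentiating cells. Of these, 4 were at least 2-fold higher in stem cells in both libraries (Fstl1, Sostdc1, Bambi and Hey1), against 10.5% of all genes, and 2 in differentiating cells (Acvr2b and Tcf4), against 4.04%. Sostdc1 and Bambi reached the minimum mean only through stem cells. The median log2 ratio of the 21 was 0.02 and -0.01. Sostdc1, a secreted BMP and WNT antagonist gene, was at 20.8 and 31.1 CPM in stem and 1.91 and 1.90 CPM in differentiating cells. Hey1, a NOTCH-responsive repressor gene that BMP can also induce, was at 182 and 175 CPM against 35.5 and 42.1 CPM. Tcf4, the E protein partner of ID proteins, was at 333 and 350 CPM in stem cells and 855 and 990 CPM in differentiating cells, a ratio of 0.389 (0.379 to 0.400) and 0.354 (0.343 to 0.365). The other E protein genes, Tcf3 and Tcf12, stayed within 1.5-fold.

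Of the receptor and SMAD genes tested outside the 10 members, only Acvr2b passed 2-fold between stem and differentiating cells in both libraries. Bmpr1a, a type 1 receptor gene, was at 49.5 and 55.8 CPM in stem, 37.5 and 46.3 CPM in differentiating and 36.5 and 42.5 CPM in endocrine cells. Smad4 was at 121 and 111 CPM, 126 and 111 CPM and 98.2 and 90.4 CPM in the same classes. Smad9 did not exceed 1.86 CPM in the 4 large classes. Acvr2b, a type 2 receptor gene, was at 17.3 and 23.9 CPM in stem and 41.9 and 49.1 CPM in differentiating cells.

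Against endocrine cells, 5 of 22 pathway genes tested were 2-fold higher in stem cells (Fstl1, Sostdc1, Rgma, Msx1 and Hey1), against 10.9% of all genes, and none was 2-fold higher in endocrine cells, against 7.24%, with a median log2 ratio of 0.48 and 0.46. Sostdc1 and Rgma reached the minimum mean only through stem cells. Msx1, a homeobox target gene, was at 677 and 634 CPM in stem and 253 and 187 CPM in endocrine cells. Hey1 and Tcf4 were 2-fold higher in differentiating than in endocrine cells, of 19 tested and against 3.16% of all genes, with none the other way, against 5.80%, and a median log2 ratio of 0.36 and 0.29.

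Against mesenchymal cells, 3 of 27 pathway genes tested were higher in stem cells (Sostdc1, Msx1 and Hey1), against 10.5% of all genes. In mesenchymal cells 7 were higher (Bmp3, Acvr1, Acvrl1, Fstl1, Twsg1, Nbl1 and Htra1), against 10.3% of all genes, with a median log2 ratio of stem to mesenchymal of -0.76 and -0.48. Sostdc1 and Hey1 were under 10 CPM in mesenchymal cells, and Bmp3, Acvr1, Acvrl1, Nbl1 and Htra1 were under 10 CPM in stem cells, so these genes reached the minimum mean only through the class where they were higher. Nbl1, a secreted BMP antagonist gene, was at 263 and 339 CPM in mesenchymal and at 2.17 and 2.68 CPM in stem cells. Htra1, a secreted protease gene, was at 114 and 121 CPM against 4.16 and 3.01 CPM. Fstl1 was at 504 and 471 CPM in mesenchymal cells. Chrd, the chordin gene, did not exceed 10.4 CPM in any large class, nor Grem1, the gremlin gene, 0.324 CPM. No pathway gene of 21 tested was 1.5-fold apart between the libraries in stem cells, against 1.21% (male higher) and 1.29% (female higher) of all genes, so this count is near the background.

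Genes with the most similar pattern were sought over 14 classes and subclasses of both libraries (28 points, log2(CPM + 5)). The points share libraries and nested subclasses, so the correlations are descriptions. Id1 was most like Cnih4 (Pearson r = 0.933), Ctnna1 (0.924) and Nectin3 (0.919), and Id3 most like Grn (0.977), Fcgrt (0.966) and Efemp2 (0.954). Id4 was most like Irf2bpl (0.895), Fam213a (0.881) and Zfhx4 (0.879), while Id2 had no close match, with Gm47283 (0.711), Diaph1 (0.710) and Igf1r (0.709). Bmp2 was most like Wtip (0.953), Acaa2 (0.947) and Igfbp3 (0.939). Bmp4 was most like Rasl11b (0.942), Lpin2 (0.941) and Tmod3 (0.899). Bmp7 was most like Stra6 (0.9498), Crispld1 (0.943) and Fn1 (0.932), and Smad7 most like Fam102b (0.962), Cdk14 (0.954) and Kcnk2 (0.953). Among the members themselves, Id3 went with Bmp2 (0.797) and Bmp7 (0.788), Id1 with Smad6 (0.791), and Id4 against Bmp4 (-0.740).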

How the data were processed

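GFP-positive cells of Sox9iresGFP/+ pituitaries on postnatal day 3 were sorted and profiled as 1 droplet single-cell library per sex, each from 3 pooled pituitaries. The authors aligned reads to mm10 with an added eGFP sequence and deposited UMI counts per gene and barcode, with no normalization. The submitters' processing notes name Cell Ranger 3.0.2, R 3.6.0 and Seurat 3 and 4. The labels name both v2 and v3 chemistry and the methods v2, so the kit is uncertain. All columns of values were used.

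Cells with at least 50 genes and a mitochondrial share not over 3 SD above the library mean were kept. Classes were gated on raw marker UMIs in cells with at least 2500 UMIs, and cells in more than 1 gate (249 male, 91 female) were left out. No doublet step was applied in the main analysis, and Scrublet, run through scanpy 1.11.5, marked 867 and 261 cells as an alternative. UMIs were summed per class and library and scaled to 1000000 UMIs of the class (CPM). Exact Poisson limits were used for levels, Clopper-Pearson limits for shares and conditional binomial limits for ratios (95%, scipy 1.17.1, Python 3.11.15, numpy 2.4.6, pandas 2.3.3). A count of 0 was read as at most 3 counts. Calls between classes needed a 2-fold ratio in both libraries and a mean of 10 CPM, and 1.5-fold between libraries. The scripts were tested on simulated data.

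Named genes were the 10 members, every gene of the listed pathway past the fold, and the 3 genes most correlated with each member at 20 CPM or more, among genes at 50 CPM or more. The members and lists were chosen with earlier results of these data known. The Lef1, Smoc2 and hormone splits were added after the levels had been seen. Alternatives were the UMI minimum, doublets, stricter gates, the total used for CPM, equal weight of cells, the fold and the CPM minimum.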

Additional observations from a re-analysis of the deposited data

Results flagged for a closer look

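Id1 and Id3 in gonadotrophs differed in direction between the libraries, with counting limits on opposite sides of 1, and the difference between the libraries was not tested. The ratio of Id1 in differentiating cells with under 2 Sox2 UMIs to Id1 in gonadotrophs was 2.539 (2.11 to 3.06) in the male and 0.6401 (0.462 to 0.888) in the female library. The ratio of Id3 in gonadotrophs to Id3 in differentiating cells was 0.6042 (0.484 to 0.749) in the male and 1.758 (1.29 to 2.36) in the female library. With stricter gates the Id3 ratio turned in each library, to 1.02 for male and 0.912 for female cells. Female gonadotrophs numbered 36 against 413 in the male library. Without the gonadotroph with the most UMIs of each gene, the female Id1 ratio was 0.871 and the female Id3 ratio 0.826, so for Id3 both libraries then lay under 1. Without the highest differentiating cell instead, the female ratios were 0.394 for Id1 and 1.92 for Id3, and without both cells 0.536 and 0.903. Among the 76 female differentiating cells with under 2 Sox2 UMIs, a single cell held 33 of 82 Id1 UMIs.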

How the results depend on the processing

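No paired analysis was possible because each sex has 1 library. Of 360 ratios of members between classes recomputed under 6 alternatives, 326 stayed within the limits of the main value, 34 moved outside them, and no ratio past 2-fold changed direction. The ratio of Bmp4 in stem to endocrine cells, whose limits hold 1, crossed 1 to 1.16 (male, doublets left out), 1.16 (male, cells weighted equally) and 0.941 (female, cells weighted equally). Of the moves, 17 came with stricter gates, 9 with equal weight of cells and 8 without marked doublets. Of 540 levels, 422 stayed within limits, and 70 of the 118 that moved did so when mitochondrial, ribosomal protein and hormone genes were left out of the total. With a minimum of 20 CPM, 3 of 5 members tested were higher in stem than in endocrine cells, with 3 of 18 pathway genes, against 9.73% of all genes. Pathway genes higher in stem than in differentiating cells then numbered 2 of 18 (8.96% of all genes) and those higher in mesenchymal than in stem cells 4 of 21 (10.3%). At 1.5-fold, 2 of 8 members and 4 of 21 pathway genes were higher in differentiating than in stem cells (8.86% of all genes). Pathway genes higher in stem than in endocrine cells numbered 8 of 22 (17.1%), with 2 the other way (14.5%), and 13 of 27 were higher in mesenchymal than in stem cells (16.5%). At 3-fold, members higher in stem cells numbered 3 of 8 against differentiating (5.77% of all genes) and 2 of 7 against endocrine cells (6.26%), and 1 of 8 was higher in mesenchymal cells (6.84%). Pathway genes at 3-fold numbered 0 of 21 higher in differentiating cells (2.31%) and 3 of 22 higher in stem than in endocrine cells. Id4 passed 1.5-fold in female stem cells (1 member) with a minimum of 5000 UMIs and with the reduced total. The ratio of Id3 in gonadotrophs to differentiating cells turned with stricter gates, to 1.02 (male) and 0.912 (female), to 0.826 (female) without the gonadotroph highest in Id3 and to 0.903 (female) without the highest cell of both classes, where leaving out single cells was chosen after seeing the data; the cause was not tested. Depth limits statements on Nog, on the 36 female gonadotrophs and on the 11 pituicyte-like cells.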

Other observations

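Many cells met no gate, 2708 of the male (36.4%) and 2365 of the female library (42.3%). Their levels lay between those of stem and differentiating cells, with Id1 at 234 and 314 CPM, Id3 at 138 and 167 CPM, Id4 at 30.1 and 42.1 CPM and Bmp4 at 21.9 and 17.0 CPM. Cells in more than 1 gate had Id1 at 214 and 135 CPM and Id3 at 233 and 390 CPM, and 44.2% and 26.4% of them were marked as doublets. The endothelial gate held 2 cells in each library (both male cells were marked as doublets), with Id1 at 595 and 605 CPM and Id3 at 714 and 549.7 CPM, and the immune gate 1 cell in each, with no UMI of either gene.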
